A study of Homo sapiens with 2 samples.

Results

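The genes for 8 transcription factors of the hepatic lineage were examined for ING5 occupancy: HNF4A, FOXA1, FOXA2, FOXA3, CEBPA, PROX1, GATA4 and GATA6. They were chosen by name out of 19819 protein-coding genes, and a peak was assigned to a gene when its summit, the base with the most fragments, lay inside the gene or within 10 kb of it. The data came from untreated HepG2 cells, an established line derived from a human liver tumour. Chromatin was precipitated with the antibody ING5 (Proteintech, 10665-1-AP) for 1 ChIP-seq library, and 1 Input DNA library, made without antibody from untreated cells of that line, served as control when peaks were called. ING5 belongs to the ING family of plant homeodomain proteins, which recognise methylation of histone H3, and works within histone acetyltransferase complexes. The ChIP library held 12416160 fragments and the input 9915170, and the list held 8608 peaks on GRCh38 positions. Each kind of library existed once, so no value has a replicate error, no test was run, and intervals on fragment counts cover counting error only. A peak list records where fragments gathered, not whether a gene was expressed. Of 8 hepatocyte marker genes (ALB, APOA1, APOB, TTR, AFP, SERPINA1, TF and FGB), 0 had a summit within 1000 bp of an annotated start, beside 30.9% of all protein-coding genes, and 1, TF, had a summit in the gene or within 10 kb, beside 40.0%. The TF summit lay 9604 bp beyond the gene and 106 bp from a start of a long noncoding RNA gene. The list therefore gave no check of the line's tissue.

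These factors form the regulatory core of liver development and hepatocyte identity. FOXA1 and FOXA2 are forkhead pioneer factors, known from mouse embryos to open chromatin in endoderm before the liver forms, and GATA4 and GATA6 are zinc finger factors that act with them in the early liver bud. PROX1 is a homeobox factor needed in mice for hepatoblasts to leave that bud. HNF4A, a nuclear receptor, and CEBPA, a basic leucine zipper factor, sustain the metabolic genes of the mature hepatocyte, and FOXA3 is a related forkhead protein of endoderm and liver.

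The promoters differed in what the peak list showed and in their content of CpG, the dinucleotide that is dense in many gene starts. The sequences below are the 250 bases before a RefSeq start (GRCh38.p14), read 5′ to 3′ on the strand of the gene, with each CpG in capitals. GATA6 is shown as the regulator with a peak at its canonical start, CEBPA as a CpG-dense promoter without one, and HNF4A with both of its promoters, which were CpG-poor and also without a peak.
GATA6 (chr18:22169339-22169588, plus strand): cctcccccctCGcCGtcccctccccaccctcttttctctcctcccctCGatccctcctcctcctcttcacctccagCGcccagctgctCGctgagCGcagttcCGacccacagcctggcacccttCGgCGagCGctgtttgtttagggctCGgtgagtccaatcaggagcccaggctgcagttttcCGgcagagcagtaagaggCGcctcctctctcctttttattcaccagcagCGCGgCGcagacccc
CEBPA (chr19:33302535-33302784, minus strand): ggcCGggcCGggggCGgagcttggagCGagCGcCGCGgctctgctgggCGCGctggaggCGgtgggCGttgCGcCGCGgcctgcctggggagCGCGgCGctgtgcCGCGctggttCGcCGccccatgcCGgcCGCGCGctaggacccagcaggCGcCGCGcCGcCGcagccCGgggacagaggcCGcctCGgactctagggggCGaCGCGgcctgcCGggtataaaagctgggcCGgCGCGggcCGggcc
HNF4A upstream promoter (chr20:44355449-44355698, plus strand): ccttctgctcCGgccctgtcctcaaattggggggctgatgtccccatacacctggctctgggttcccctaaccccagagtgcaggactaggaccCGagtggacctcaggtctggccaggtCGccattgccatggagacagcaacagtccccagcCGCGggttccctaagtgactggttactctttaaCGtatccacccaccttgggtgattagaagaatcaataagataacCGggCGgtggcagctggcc
HNF4A downstream promoter (chr20:44400989-44401238, plus strand): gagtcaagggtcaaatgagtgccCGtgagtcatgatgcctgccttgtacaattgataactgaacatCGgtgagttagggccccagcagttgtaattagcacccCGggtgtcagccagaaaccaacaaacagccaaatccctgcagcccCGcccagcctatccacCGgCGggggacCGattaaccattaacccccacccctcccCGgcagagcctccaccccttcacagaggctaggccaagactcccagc
The GATA6 sequence held 16 CpG and its last 71 bases lay inside a peak. The CEBPA sequence held 41 CpG, and each of the HNF4A sequences held 8, with none of their bases inside a peak.

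ING5 peaks were listed at 2 of the 8 regulator genes, GATA6 and PROX1. GATA6 had 3 peaks around its first exons, while PROX1 had 1 weak peak at an upstream alternative start. HNF4A, FOXA1, FOXA2, FOXA3, CEBPA and GATA4 had none inside the gene or within 10 kb. The count of 2 in 8 stood beside 40.0% of all protein-coding genes with a summit in the gene or within 10 kb. For promoters, taken as 1000 bp on either side of any annotated start, the count was again 2 of 8, against 30.9% of all protein-coding genes. Both counts lie near the background for so few genes, so they set the regulators neither above nor below other genes. All 4 summits fell inside the gene itself, and none was in the 10 kb on either side.

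**Figure D1:**
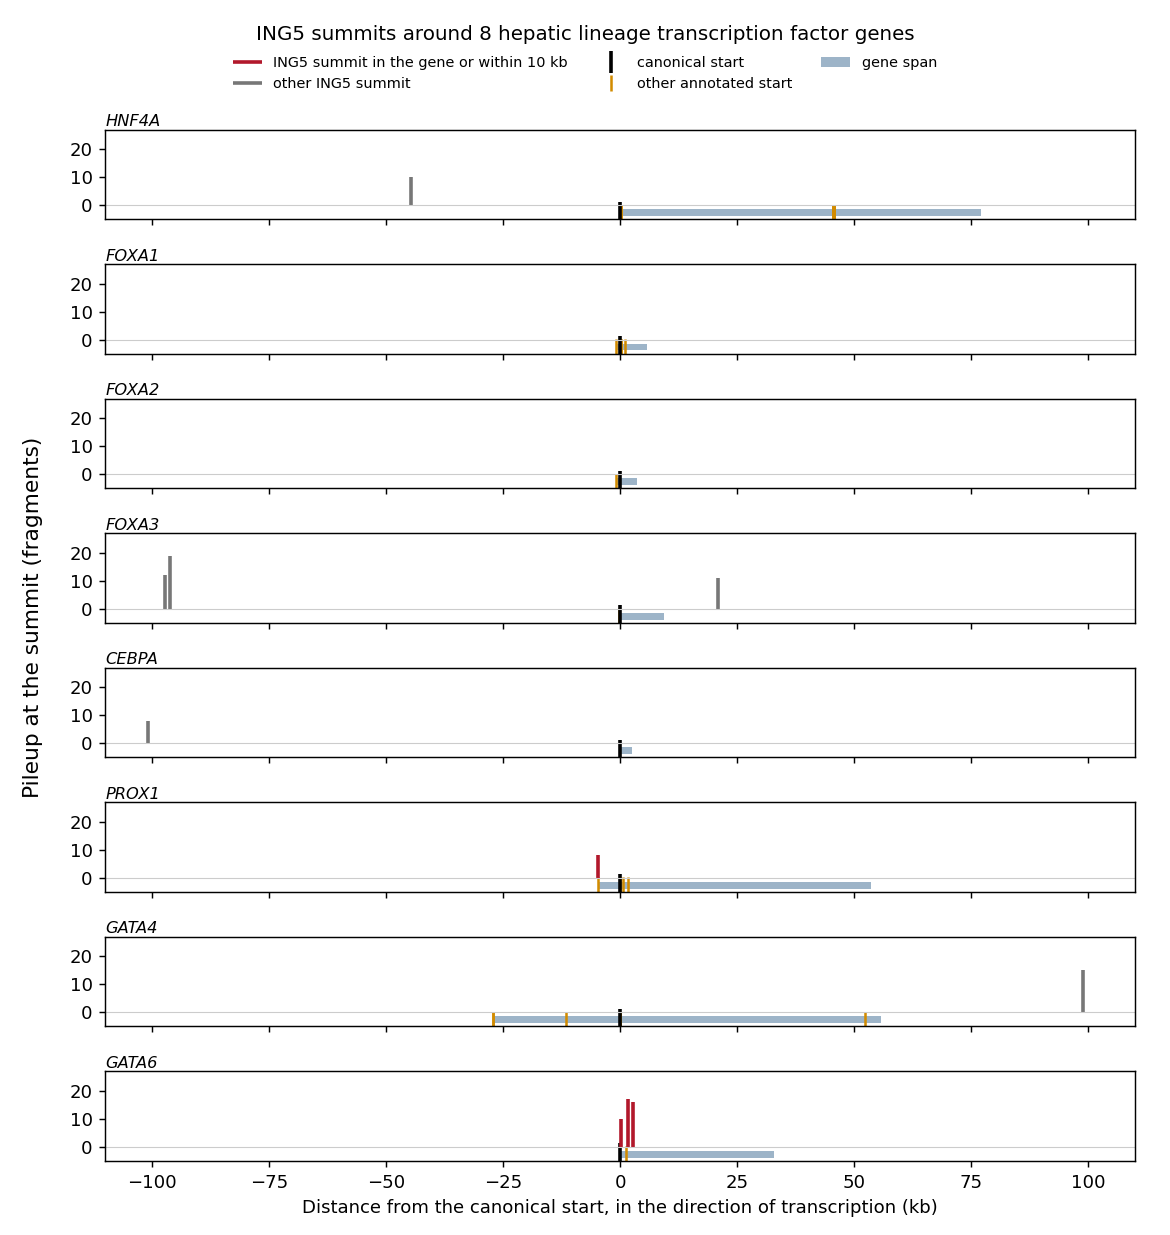
Pileup at each ING5 summit (vertical axis, fragments) against distance from the canonical start in kb, in the direction of transcription, for the 8 regulator genes. Red lines mark summits in the gene or within 10 kb, which appear at PROX1 and GATA6 alone, and grey lines mark the other summits within 110 kb.

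GATA6 (ENSG00000141448) spans 22169589 to 22202528 on chromosome 18, plus strand, and has 2 annotated starts. Its canonical transcript begins at the first base of the gene, and an alternative transcript begins 1344 bp further in. The 3 peaks together ran over 2902 bp, of which 1089 bp were inside a peak. Beyond the gene the nearest summit was 427732 bp away, so these 3 peaks stood alone in their neighbourhood. Across all protein-coding genes, 6.18% had 3 or more summits in the gene or within 10 kb, and 7.11% had 2 or more promoter summits, as GATA6 did.

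The first GATA6 peak sat on the canonical start. It covered 210 bp from 22169518 to 22169727, with 10 fragments at its summit (95% exact Poisson interval 4.80 to 18.39), 5.94-fold over background. The summit lay 91 bp downstream of the canonical start, inside exon 1 of the transcript GATA6-201. The same summit was 198 bp downstream of a start of GATA6-AS1, a long noncoding RNA transcribed from the other strand. At that spacing the peak cannot be told apart as belonging to one gene or the other.

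The strongest GATA6 peak lay at the alternative start. It covered 556 bp from 22171042 to 22171597, with 17 fragments at the summit (95% exact Poisson interval 9.90 to 27.22) and 9.71-fold enrichment, which ranked it 1016 by −log10 p in the list. The summit was 367 bp downstream of the start of GATA6-202 and 1711 bp downstream of the canonical start. It fell in an exon that is exon 2 of GATA6-201 and exon 1 of GATA6-202. Of the 6527 promoter peaks, 79.8% had fewer fragments at the summit and 73.7% were narrower.

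The last GATA6 peak was 499 bp further on, over the end of the same exon. It covered 323 bp from 22172097 to 22172419, with 16 fragments (9.15 to 25.98) and 9.17-fold enrichment. Its summit was 1306 bp past the alternative start and 2650 bp past the canonical start, outside the promoter window, and so it counted as a peak within the gene. The Poisson intervals of the 3 GATA6 peaks overlap, so the lower pileup at the canonical start is not separated from the other two by counting error. All 3 stood over a local background of 0.853 fragments, the lowest in the list.

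PROX1 (ENSG00000117707) spans 213983181 to 214041510 on chromosome 1, plus strand, and has 5 annotated starts. Its peak lay at the most upstream of them, 4792 bp before the canonical start. The peak covered 198 bp from 213983294 to 213983491, with 8 fragments at the summit (3.45 to 15.76) and 3.996-fold enrichment over a local background of 1.25 fragments. The summit was 114 bp downstream of the start of PROX1-203, inside exon 1 of that transcript, and 4678 bp upstream of the canonical start. It was the second base of the peak. No other PROX1 start had a summit within 1000 bp. Of the 6126 genes with a promoter summit, 9.89% had none at the canonical start, as PROX1 did.

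The PROX1 peak was among the weakest of the list. It ranked 8534 of 8608 by −log10 p, a value of 5.17 that 65 peaks shared and that 10 peaks fell below. Among promoter peaks 1.35% had fewer fragments at the summit, 0.659% had lower fold enrichment and 6.79% were narrower. Its Poisson interval overlaps that of the strongest GATA6 peak. The strongest GATA6 peak therefore had a higher count than the PROX1 peak, but the intervals do not separate them. All 3 promoter summits at the regulators lay in an annotated exon, as 45.5% of promoter summits over all protein-coding genes did, and the GATA6 summit outside the promoter window was in an exon too.

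**Figure D2:**
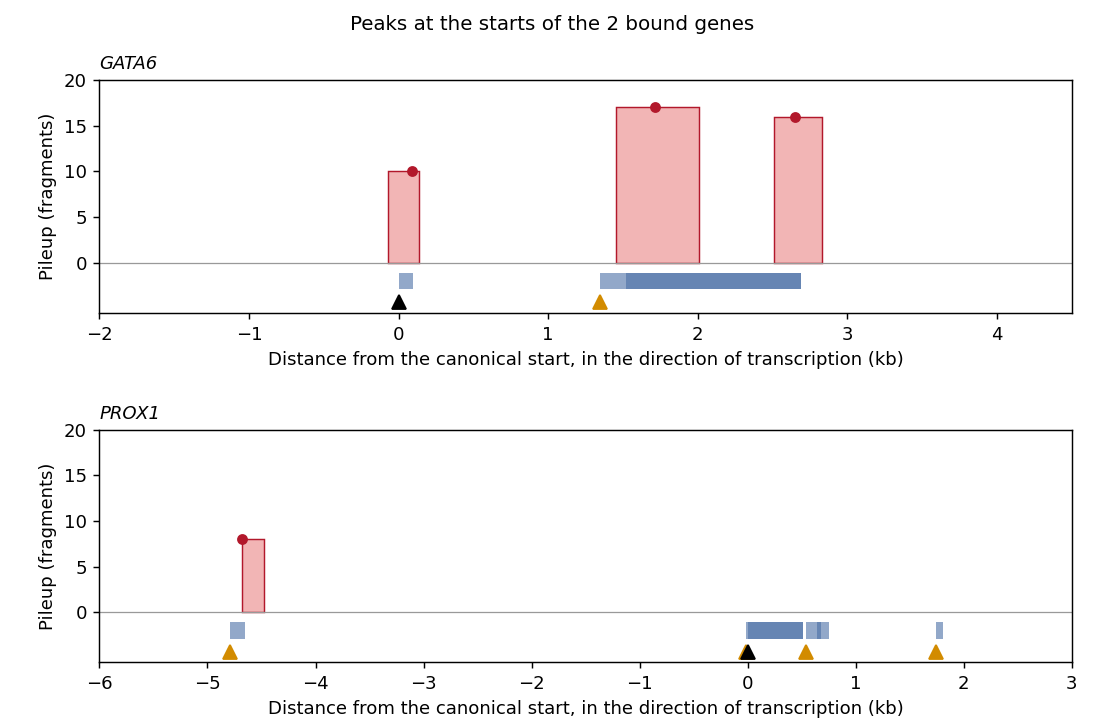
Peaks at GATA6 (top) and PROX1 (bottom), as boxes whose width is the peak and whose height is the pileup at the summit in fragments, against distance from the canonical start in kb. Dots are summits, blue boxes are annotated exons, black triangles are canonical starts and orange triangles other starts. The GATA6 peaks of 10, 17 and 16 fragments lie at and beyond its starts, and the PROX1 peak of 8 fragments lies at the upstream start.

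The nuclear receptor gene HNF4A (ENSG00000101076, chromosome 20, 44355699 to 44432845, plus strand) had no summit at any of its 10 annotated starts. These fall in 2 groups: 3 starts at the upstream promoter, known as P2, and 7 starts around the downstream promoter, known as P1, which begins 45540 bp further in and is the promoter used in adult liver. The nearest summit was 44687 bp upstream of the gene. It lay 190 bp inside FITM2, a lipid droplet gene, with 10 fragments and 5.51-fold enrichment.

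The 3 forkhead genes were all without a peak. FOXA1 (ENSG00000129514, chromosome 14, 37589552 to 37596059, minus strand) had its nearest summit 417.1 kb away. That peak had 15 fragments and lay 41 bp from a start of SLC25A21, a mitochondrial carrier gene. FOXA2 (ENSG00000125798, chromosome 20, 22580998 to 22585455, minus strand) was the most isolated of the 8. Its nearest summit was 765.6 kb away, with 17 fragments, 274 bp from a start of NXT1, a nuclear export factor gene. FOXA3 (ENSG00000170608, chromosome 19, 45863989 to 45873797, plus strand) came closest to the 10 kb limit. Its nearest summit was 11540 bp beyond the gene, with 11 fragments and 6.47-fold enrichment, and lay 804 bp from a start of IRF2BP1, which encodes a transcriptional corepressor.

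CEBPA (ENSG00000245848, chromosome 19, 33299934 to 33302534, minus strand), a gene with 1 annotated start, was also without a peak. Its nearest summit was 100.9 kb away and was weak, with 8 fragments and 4.86-fold enrichment, 8328 bp from the nearest annotated start, that of the peptidase gene PEPD. GATA4 (ENSG00000136574, chromosome 8, 11676959 to 11760002, plus strand) had 8 annotated starts and a summit at none of them. Its nearest summit, 43142 bp beyond the gene, had 15 fragments and 8.63-fold enrichment and lay 10 bp from a start of FDFT1, which encodes squalene synthase. The related genes GATA4 and GATA6 thus differed in the list, with 0 and 3 peaks.

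At 5 of these 6 genes the nearest summit was within 1000 bp of a start of another protein-coding gene, CEBPA being the exception. Of all summits on the autosomes and chromosome X, 76.0% lay within 1000 bp of a protein-coding start. For so few genes, 5 of 6 lies near that background and does not set their surroundings apart. Between the gene ends and the 10 kb limit there was no summit at any regulator, and the first one outside the limit was that near FOXA3. With a limit of 50 kb the count became 5 of 8, through FOXA3, GATA4 and HNF4A, beside 54.3% of all protein-coding genes. FOXA1, FOXA2 and CEBPA had no summit within 100 kb, which was so at 36.2% of all protein-coding genes. A distance as large as that of FOXA2 or larger was found at 8.96% of genes, and one as large as that of FOXA1 at 15.7%.

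**Figure D3:**
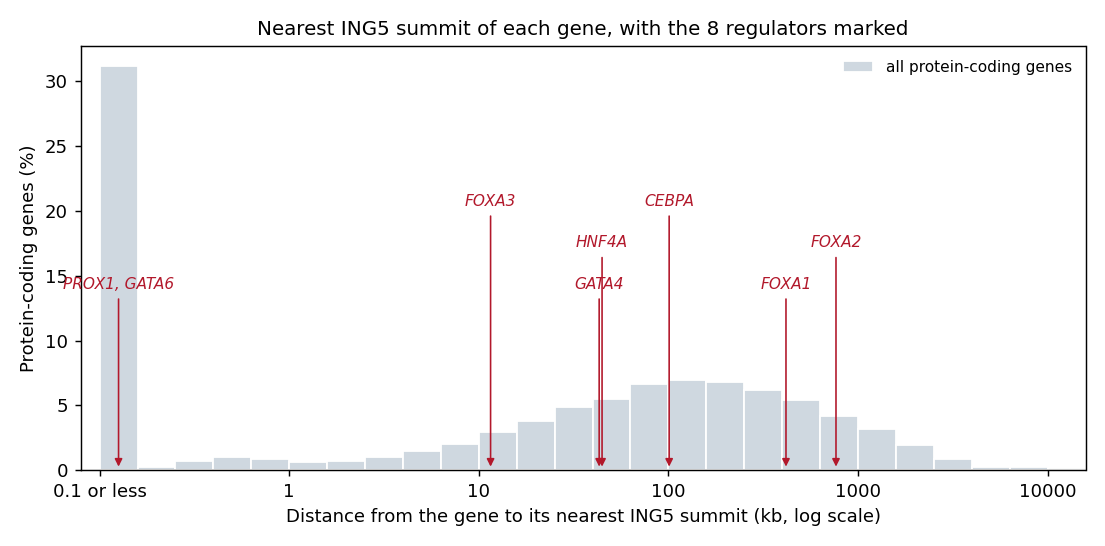
Share of 19819 protein-coding genes (vertical axis, %) by distance from the gene to its nearest ING5 summit (horizontal axis, kb, log scale, with 0.1 kb and less, distance 0 included, in the first bar). Arrows mark the 8 regulators: PROX1 and GATA6 at 0, FOXA3 at 11.5 kb, GATA4 at 43.1 kb, HNF4A at 44.7 kb, CEBPA at 100.9 kb, FOXA1 at 417.1 kb and FOXA2 at 765.6 kb.

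The surroundings of the regulators held few genes with a promoter peak in some places and many in others. Within 500 kb of HNF4A, 7 of 15 other protein-coding genes had a promoter peak, and around FOXA3 9 of 34 did. The count was 4 of 13 around CEBPA, 1 of 3 around FOXA1, 1 of 16 around GATA4 and 0 of 3 around FOXA2. Together these neighbours of genes without a peak had one in 22 of 84 cases (26.2%), beside 30.9% of all protein-coding genes. Around the genes with a peak the counts were 1 of 3 for GATA6 and 2 of 2 for PROX1. FOXA2 was thus the 1 regulator with no promoter peak among its protein-coding neighbours at this distance.

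Long noncoding RNA genes start close to 6 of the 8 regulators, and several are known by the name of the gene they accompany. There were 15 such genes with a start inside a regulator gene or within 10 kb of it, and GATA6-AS1 was the 1 with a summit within 1000 bp of a start. Over all 18592 long noncoding RNA genes the share was 8.76%. PROX1-AS1, transcribed against PROX1, had its nearest start 1964 bp from the PROX1 summit. CEBPA-DT, which starts back to back with CEBPA, was 100619 bp from any summit, HNF4A-AS1 was 73659 bp away and LINC00261, the neighbour of FOXA2, 772423 bp. The 3 protein-coding genes that start within this distance of a regulator, TTC6 beside FOXA1, SYMPK beside FOXA3 and NEIL2 beside GATA4, had no summit within 1000 bp of a start either.

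The lack of a listed peak is a statement about the threshold. The lowest pileup in the list was 7 fragments, and at the lowest local background such a summit reached a −log10 p of 5.48 against the cutoff of 1e-05. Fewer fragments at a start of HNF4A, FOXA1, FOXA2, FOXA3, CEBPA or GATA4 would go unlisted. Signal below the threshold was not read at these genes, so the lack of a listed peak does not show that occupancy was absent.

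Promoter CpG was set beside the peaks for the regulators with a RefSeq promoter sequence, which were GATA6, HNF4A, FOXA1, FOXA3 and CEBPA, with 6 promoter windows of 300 bases in all (250 before the start and 50 from it on). The promoter sequences of PROX1, FOXA2 and GATA4 were not analysed here. CpG observed over expected compares the count of CpG with that foreseen from the C and G content. Over 22131 RefSeq promoters of protein-coding genes, the share with a summit within 1000 bp was 27.2%, and it was 1.04% in the lowest of 10 equal classes of this ratio and 50.7% in the highest. GATA6, with a ratio of 0.824, was in class 7, where 39.5% of promoters had a summit.

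The promoters without a summit lay in classes 3, 7, 9 and 10. CEBPA had a ratio of 1.05, above 93.6% of promoters, in class 10. FOXA1 had 0.966, in class 9, where 46.6% of promoters had a summit, and FOXA3 had 0.849, in class 7 with GATA6. HNF4A had 0.409 at its upstream promoter and 0.364 at its downstream promoter, both in class 3, where 6.37% of promoters had a summit. Dense CpG was therefore found at 3 regulator promoters that had no listed peak as well as at the GATA6 promoter that had one.

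**Figure D4:**
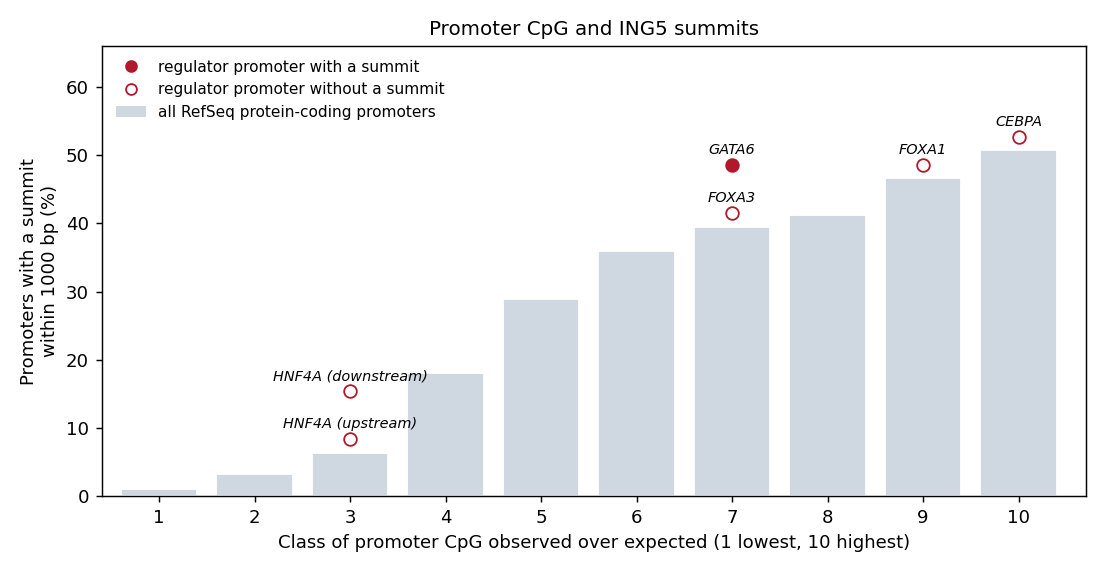
Share of RefSeq protein-coding promoters with an ING5 summit within 1000 bp (bars, %) in 10 equal classes of CpG observed over expected, from lowest to highest. Circles above a bar show the class of a regulator promoter, filled for GATA6, which had a summit, and open for the promoters without one; their height carries no value.

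Short motifs were searched in the same 300-base windows on both strands, with overlapping matches each counted. The motif GGGCGG, a GC box, was found in 56.3% of promoters: in 75.6% of those with a summit and in 49.1% of those without. It occurred 5 times in the FOXA3 window, 2 times each in those of CEBPA and FOXA1 and 1 time in each HNF4A window, and it was not in that of GATA6. The motif CCAAT, found in 34.6% of promoters, was the 1 searched motif in the GATA6 window and occurred in the upstream HNF4A window too. The TATA box letters TATAAA, found in 9.46% of promoters, occurred in the CEBPA and FOXA3 windows. The GATA factor motif, searched as AGATAA and held by 7.88% of promoters, occurred in the upstream HNF4A window. The forkhead motif, searched as TGTTTAC and held by 2.85% of promoters, occurred in none of the 6 windows, nor did the E-box CACGTG, held by 8.34%. The letters GGAAG, held by 73.7% of promoters, occurred in the windows of FOXA1 and of both HNF4A promoters.

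A wider list of 23 liver regulators gave promoter peaks at 10 genes (43.5%), beside 30.9% of all protein-coding genes. For so few genes this count does not set the list apart from other genes. NR2F2, an orphan nuclear receptor, had the strongest, with 36 fragments (25.21 to 49.84) and 19.96-fold enrichment over 2519 bp. TBX3, a T-box factor of hepatoblasts, had 29 fragments (19.42 to 41.65) and 16.2-fold enrichment. That summit was 138 bp from a start of the long noncoding RNA gene TBX3-AS1 and 355 bp from one of TBX3, and TBX3 was not counted with canonical transcripts alone. NFIA had 26 fragments and NR2F1 22, and NR2F1 had 4 promoter summits. The strongest of these was 10 bp from a start of NR2F1-AS1 and 344 bp from one of NR2F1. As at GATA6, such peaks cannot be told apart as belonging to one gene or the other. The lower limits for NR2F2 and TBX3 lie above the 17 fragments of the strongest GATA6 peak, whose own interval reaches 27.22, so the intervals overlap.

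The other bound genes of the wider list were weaker. PPARA, the receptor that drives fatty acid oxidation, had 17 fragments, as many as GATA6. XBP1, a factor of the unfolded protein response, had 14, RXRA, the shared partner of many nuclear receptors, and AHR, the dioxin receptor, 13 each, and ATF5 11. HHEX, a homeobox factor of the liver bud, had 8 fragments and 3.996-fold enrichment, the same pileup, enrichment and rank as PROX1. The 13 without a promoter peak were ONECUT1, ONECUT2, NR5A2, NR1H4, NR1I2, NR1I3, NR0B2, NR1H3, SOX9, CREB3L3, MLXIPL, KLF15 and LHX2.

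Among 10 paralogues of the regulators, promoter peaks were found at 3, a share close to the 30.9% of all protein-coding genes. CEBPD, a relative of CEBPA, had the strongest, with 39 fragments (27.73 to 53.31) and 21.6-fold enrichment over 1653 bp, and a second promoter peak of 16 fragments. GATA2, a blood and endothelial relative of GATA4 and GATA6, had 24 fragments and 8.69-fold enrichment over a raised local background of 1.88. That summit was 222 bp from a start of GATA2-AS1 and 649 bp from one of GATA2. A second promoter peak of GATA2 had 10 fragments, with its summit 188 bp from a GATA2 start. GATA2 was not counted with canonical transcripts alone. GATA5 had 10 fragments and 4.88-fold enrichment, with its summit 474 bp upstream of its start. HNF4G, CEBPB, CEBPE, CEBPG, PROX2, GATA1 and GATA3 had none. Of the C/EBP family CEBPD had promoter peaks, and CEBPA, CEBPE and CEBPG had none. CEBPB had none by its summits, but a peak of 31 fragments with its summit 1077 bp from the start overlapped the window, and CEBPB was counted with any overlap or with a window of 3000 bp, which gave 4 of 10. Within the GATA family promoter peaks were listed for GATA6, GATA2 and GATA5 and not for GATA4, GATA1 or GATA3.

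**Figure D5:**
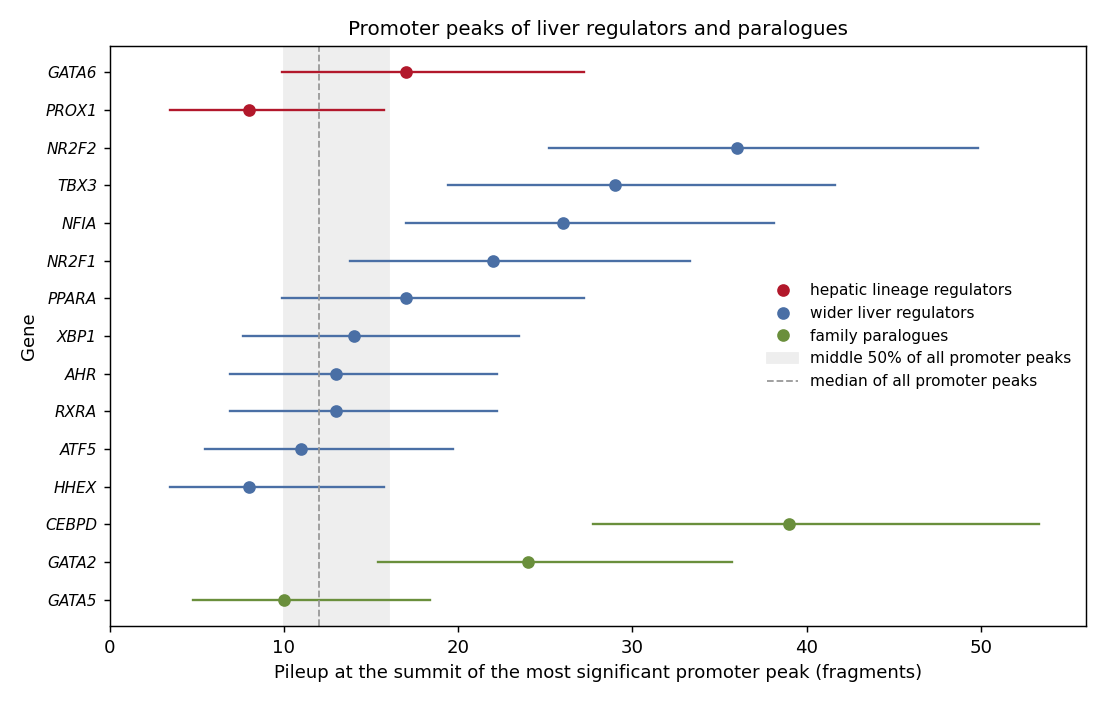
Pileup at the summit of the most significant promoter peak of each gene that had one (fragments), with 95% exact Poisson intervals as bars, for the hepatic lineage regulators, the wider liver regulators and the family paralogues. The grey band spans the quartiles of all promoter peaks, 10 to 16 fragments, and the dashed line is their median of 12. GATA6 with 17 fragments lies above the band and PROX1 with 8 below it.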

How the data were processed

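Per the file headers, MACS2 2.1.1.20160309 compared the ChIP with the input in paired-end mode and kept peaks below a p of 1e-05; the headers give the ChIP library a name not found in the labels. The submitters' processing notes list fastp 0.19.6, Bowtie2 and deepTools. In the deposited list pileup is a coverage signal, in fragments, and fold enrichment is its ratio to local background with 1 added to both. Pileup was counted at the summit of each peak. Peaks were ranked by the deposited −log10 p. The deposited −log10 q was left aside because its calculation is denied by the headers. The authors' values describe single peaks and were used within the list alone. GRCh37 is the build of the labels. However, 76.0% of summits on chromosomes 1 to 22 and X lay within 1000 bp of a protein-coding start at its GRCh38 position, against 13.7% at its GRCh37 position, and positions were therefore read as GRCh38.

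Gene positions were the original GRCh38 locations recorded in GENCODE 44, and promoter sequences came from RefSeq GRCh38.p14, which matched 5 of the 8 regulators. Local background was recovered from pileup and fold with a pseudocount of 1. Python 3.11.15, pandas 2.3.3 and scipy 1.17.1 were used, and peak assignment was tested on simulated data. The 8 genes and the lists were chosen with earlier results of these data known. All 8 were named, as was each listed gene with a promoter peak. The wider list of liver regulators as first drawn up held 2 more genes, which are not reported here, and its counts are over the remaining 23. Alternatives changed the peaks kept, the promoter window, the flank, the transcripts and the use of summits or whole peaks.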

Additional observations from a re-analysis of the deposited data

How the results depend on the processing

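No paired analysis was possible because each kind of library existed once and no test was run; no replicate could be left out. RefSeq gene spans were added after seeing the data and gave the same 2 regulators. With them 7 of 23 wider regulators (30.4%) had a promoter peak, beside 25.1% of all protein-coding genes. NR2F2, TBX3 and NFIA were then not counted. The paralogues numbered 2 of 10, without GATA2. With the 4304 peaks of higher −log10 p, GATA6 was the 1 regulator of 8 with a promoter peak. The 4304 of higher fold enrichment gave the same. In both sets GATA6 alone also had a summit in the gene or within 10 kb, beside 25.3% and 25.6% of all protein-coding genes. Among the 1000 most significant peaks 0 regulators had either, beside 6.82% of all protein-coding genes with a summit in the gene or within 10 kb. The best GATA6 peak ranked 1016 and that of PROX1 8534. Canonical transcripts alone left 1 regulator with a promoter peak, GATA6, beside 27.9% of all protein-coding genes. A flank of 50 kb gave 5. The wider regulators with a promoter peak numbered 4 among the 1000 most significant peaks and 4 with a window of 200 bp, and the paralogues 1 with 200 bp. Over all protein-coding genes the 6126 became 3824 (19.3%) with the 4304 peaks of higher −log10 p and 3844 (19.4%) with those of higher fold enrichment. The count was 945 (4.77%) with the 1000 most significant peaks and 2678 (13.5%) with 200 bp. The other 25 settings stayed within 1.5 times the values reported. Depth limits what a missing peak shows, as 7 fragments was the least that was listed.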

Other observations

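Some liver regulators and paralogues had peaks in or beside the gene but away from the promoter window. ONECUT2, a cut homeobox factor of biliary and liver development, had 3 summits in the gene, 1248, 2563 and 4156 bp from its nearest start, with 10, 8 and 10 fragments. CEBPB, a C/EBP factor of the acute phase response, had 2. The stronger, of 31 fragments and 9.13-fold enrichment, had its summit 1077 bp from the CEBPB start and 409 bp from a start of CEBPB-AS1, a long noncoding RNA gene. RXRA had 11 summits in the gene, of 7 to 13 fragments with a median of 10, and 1 of them was in a promoter window. As many summits in the gene or within 10 kb were found at 19 of 19819 protein-coding genes (0.0959%). These genes were singled out after their values were seen.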
